A study of Mus musculus with 24 samples.

Results

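Vomeronasal type 1 receptors (V1Rs, gene symbols Vmn1r) are G protein-coupled receptors of the rodent vomeronasal organ, and they were followed here in the liver. Their genes were taken from the array annotation as all probe sets with a single symbol made of Vmn1r and a number, with the probe set of highest mean level standing for a gene that had more. This gave 117 of the 19938 genes with such a probe set, and all 117 matched a gene of RefSeq. Liver RNA of 24 male mice on the C57Bl6 background taken at 24 weeks of age was hybridised to Mouse Gene 1.0 ST arrays of Affymetrix, with 8 mice of each genotype and an array for each mouse. The alb-SREBP-1a∆P mice (∆P below) carry the N-terminal active domain of human SREBP-1a, a transcription factor of lipid synthesis, with its sites for the MAP kinases ERK, JNK and p38 exchanged. The alb-SREBP-1a mice carry the same domain with these sites intact, and the C57Bl6 mice are wild type without a transgene. In both lines the albumin promoter drives the transgene, so it is made in hepatocytes beside the mouse's own SREBP-1. All mice received standard chow. The comparisons ask what the transgene, and the loss of its phosphorylation sites, changes in hepatic gene expression.

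In the vomeronasal organ a sensory neuron of the apical layer usually expresses very few V1R genes, together with the G protein subunit Gnai2, and the receptors detect pheromones and other social odorants. Receptor activation releases G protein beta and gamma subunits, which activate a phospholipase C, and the cation channel Trpc2 then depolarises the cell. The genes have an intronless coding sequence and lie in clusters. Older symbols add a letter for the sequence family (V1ra, V1rb and so on). Most V1Rs have no known ligand. A role in hepatocytes is not part of this textbook picture.

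The labelled tissue showed its markers. The 9 measured hepatocyte markers had mean levels between the 97.8 and 100.0 percentile of all probe sets. In ∆P against C57Bl6 liver 6 of these 9 markers fell (Alb, Ttr, Apoa1, Apob, Cyp3a11 and Tat). Of the others, 1 rose (Apoa2) and 2 did not pass. In the same comparison 27.0% of all probe sets rose and 20.2% fell. Among the 3556 probe sets of highest mean level, 457 rose and 1677 fell, so nothing is read from the marker counts about hepatocytes. The summed level of the markers (log2 of the sum) ran between 16.29 and 16.48 in ∆P and between 16.47 and 16.63 in C57Bl6 liver. In alb-SREBP-1a liver it ran between 16.38 and 16.60. The part of these marker changes in the V1R values was not tested. The probe set of mouse Srebf1, the gene whose human form the transgenes carry, lay between 8.19 and 8.99 (log2) in ∆P, between 8.66 and 9.68 in alb-SREBP-1a and between 8.89 and 9.31 in C57Bl6 liver. These ranges overlap, with medians of 8.64 in ∆P, 9.38 in alb-SREBP-1a and 8.95 in C57Bl6 liver. The alb-SREBP-1a median lay above all C57Bl6 arrays and the ∆P median below all of them. How far this probe set reads the human transgene was not tested. The number of arrays limits the precision of all values.

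V1R probe sets were dim. Their mean levels over the 24 arrays, on the deposited log2 scale, ran between 1.97 and 5.38 with a median of 3.33, while the median of all 35556 probe sets was 5.61. Of the 117 genes, 106 lay below the 20th percentile of mean levels and the highest reached the 44.8 percentile. No present or absent calls were used here, so whether a V1R transcript is present in liver was not tested, and fewer cells of a type and less RNA per cell cannot be told apart in whole liver. V1R sequences are alike, and another 45 V1R genes appear only in the 28 probe sets that the annotation assigns to several genes. Signal from a near-identical copy is therefore possible for each gene named.

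V1R genes were higher in ∆P liver. Against C57Bl6, 97 of 117 genes rose, none fell and 20 did not pass the test (limma, p adjusted over all probe sets under 0.05, which is the meaning of rose and fell throughout). Across all probe sets, 27.0% rose and 20.2% fell in this comparison. The fold change was above 0 for all 117 genes as deposited, for 116 with each array centred on its median, for 102 after quantile normalization and for 93 after cyclic loess. Its median was 0.56 (log2), against 0.11 for all probe sets, and the range was 0.00 to 1.41. A rise of at least 1.5-fold was reached by 55 genes (9.85% of all probe sets), and in 26 genes every ∆P array lay above every C57Bl6 array (5.34% of all probe sets).

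Against alb-SREBP-1a liver, ∆P liver had 64 V1R genes that rose, none that fell and 53 that did not pass, where 22.8% of all probe sets rose and 21.4% fell. The median change was 0.45, against 0.08 for all probe sets, and 115 fold changes were positive (107, 103 and 96 with centring, quantile normalization and loess). The arrays did not overlap for 8 genes (1.88% of all probe sets). Here 26 genes rose by at least 1.5-fold (7.23% of all probe sets).

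In alb-SREBP-1a liver few V1R genes passed against C57Bl6, while most fold changes were positive. Only Vmn1r236, Vmn1r65, Vmn1r42 and Vmn1r14 rose, none fell and 113 did not pass by limma, where 6.77% of all probe sets rose and 3.98% fell. At an unadjusted p under 0.05, 23 genes were higher (5084 of all 35556 probe sets). The fold change was above 0 for 97 genes as deposited (18603 of all 35556 probe sets). It was above 0 for 99, 70 and 76 genes with centring, quantile normalization and loess. The median change was 0.12, against 0.01 for all probe sets, no gene rose by 1.5-fold (2.22% of all probe sets did), and the arrays overlapped for every gene (2.03% of all probe sets lay wholly higher). The comparisons share arrays, so their values are set side by side without a test of their likeness. Among the 117 genes, 59 rose in ∆P against both other genotypes without a call in alb-SREBP-1a, and 35 rose in ∆P against C57Bl6 alone. Group means were ordered ∆P, alb-SREBP-1a, C57Bl6 downwards for 95 genes. The counts of these call patterns and of this order hold for the deposited scale only. Their shares over all probe sets are not given here, so nothing further is read from them.

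**Figure D1:**
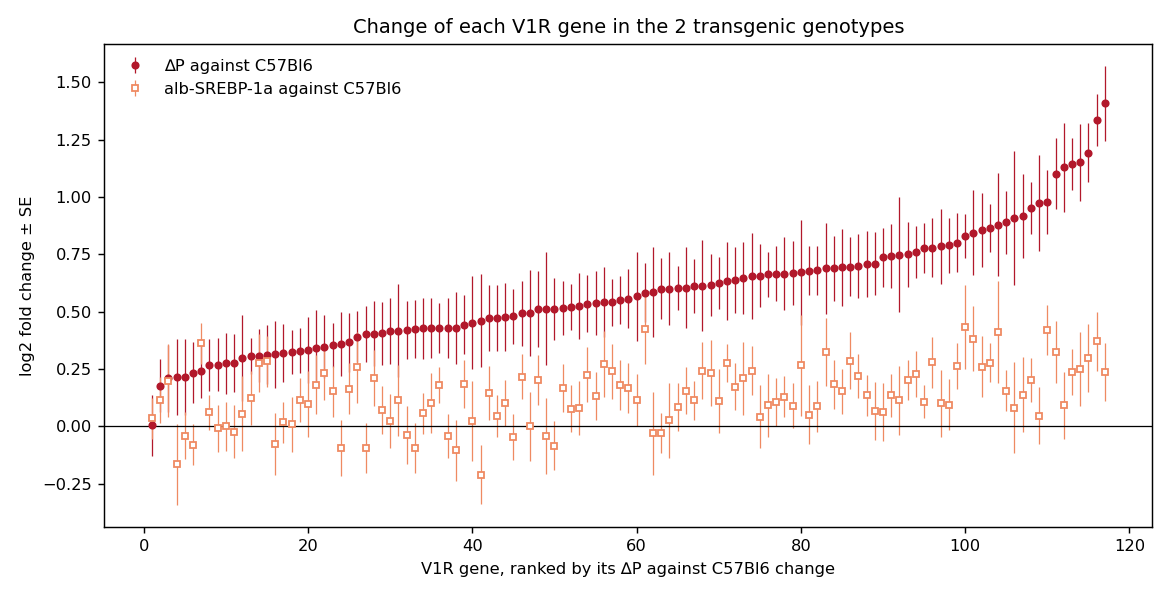
The log2 fold change ± SE of each of 117 V1R genes (vertical axis) is drawn against its rank by change in ∆P against C57Bl6 liver (filled circles), with alb-SREBP-1a against C57Bl6 as open squares. All circles lie at or above 0.00 and reach 1.41 on the deposited scale (93 of 117 stay positive after cyclic loess), while the squares lie between -0.21 and 0.43.

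The largest rise was that of Vmn1r216 (older symbol V1ri10), a receptor gene of chromosome 13. Its levels ran between 3.32 and 4.68 with a median of 4.52 in ∆P, between 2.67 and 3.67 with a median of 3.22 in alb-SREBP-1a, and between 2.61 and 3.27 with a median of 2.92 in C57Bl6 liver. All ∆P arrays lay above all C57Bl6 arrays, and 7 of 8 above all alb-SREBP-1a arrays. The rise was 1.41 ± 0.16 (SE; 2.65-fold, adjusted p = 4.96e-06) against C57Bl6 and 1.17 ± 0.18 (adjusted p = 0.000227) against alb-SREBP-1a. The lowest ∆P array, replicate 4, is also the ∆P array whose V1R levels were lowest in the median over the 117 genes.

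Vmn1r216 belongs to the V1ri family, of which all 9 measured genes rose in ∆P against C57Bl6 liver, with a median change of 0.78, and 8 of 9 against alb-SREBP-1a. Of all probe sets 27.0% and 22.8% rose in these comparisons. Under all 3 other scalings, 5 of the 9 kept their call against C57Bl6. Vmn1r193 (V1ri9) lay between 5.14 and 5.91 with a median of 5.55 in ∆P, between 4.41 and 4.85 with a median of 4.65 in alb-SREBP-1a, and between 4.10 and 4.73 with a median of 4.38 in C57Bl6 liver. Here the ∆P arrays overlapped with neither other genotype, and the rises were 1.14 ± 0.11 (adjusted p = 1.3e-06) against C57Bl6 and 0.91 ± 0.11 (adjusted p = 8.92e-05) against alb-SREBP-1a. Vmn1r192 (V1ri1) rose by 1.10 ± 0.15 against C57Bl6 and 0.78 ± 0.16 against alb-SREBP-1a, with every ∆P array above every C57Bl6 array. Vmn1r202 (V1ri7) rose by 0.97 ± 0.21 and 0.93 ± 0.22 in the same comparisons, and its ∆P range of 3.21 to 5.05 overlapped the C57Bl6 range of 3.06 to 3.68. In alb-SREBP-1a against C57Bl6, no V1ri gene passed the test and the median change was 0.23.

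The windows around the annotated starts of these genes were aligned within the family. RefSeq windows of 250 bases before and 50 after the start (GRCm38.p6) were found for 103 of the 117 genes, 8 of them V1ri. In 83 of the 103 windows the first 3 bases after the start are ATG, so these windows lie around the coding start rather than a mapped transcription start. The 28 V1ri pairs shared between 59.0% and 79.7% of bases in alignment. Pairs outside the family were not aligned, so nothing is read from these shares about the likeness of the family. Shown are Vmn1r216 with the window most like it, Vmn1r202 (77.7%), and the most alike pair, Vmn1r192 and Vmn1r215 (79.7%), with the longest stretch common to each pair in capitals. They lie at chr13:23098899-23099198 (plus strand), chr13:22502196-22502495 (minus), chr13:22187999-22188298 (minus) and chr13:23075542-23075841 (plus).
Vmn1r216: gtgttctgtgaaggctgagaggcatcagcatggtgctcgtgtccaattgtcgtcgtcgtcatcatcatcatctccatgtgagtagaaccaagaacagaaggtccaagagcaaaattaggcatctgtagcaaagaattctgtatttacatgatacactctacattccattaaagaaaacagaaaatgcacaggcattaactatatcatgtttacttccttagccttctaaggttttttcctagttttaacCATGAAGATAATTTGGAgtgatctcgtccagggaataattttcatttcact
Vmn1r202: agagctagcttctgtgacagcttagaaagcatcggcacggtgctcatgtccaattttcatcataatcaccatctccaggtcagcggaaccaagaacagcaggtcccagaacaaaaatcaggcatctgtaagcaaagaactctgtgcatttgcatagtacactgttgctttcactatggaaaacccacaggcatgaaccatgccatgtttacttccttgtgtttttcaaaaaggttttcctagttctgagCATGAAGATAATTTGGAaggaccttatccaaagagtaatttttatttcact
Vmn1r192: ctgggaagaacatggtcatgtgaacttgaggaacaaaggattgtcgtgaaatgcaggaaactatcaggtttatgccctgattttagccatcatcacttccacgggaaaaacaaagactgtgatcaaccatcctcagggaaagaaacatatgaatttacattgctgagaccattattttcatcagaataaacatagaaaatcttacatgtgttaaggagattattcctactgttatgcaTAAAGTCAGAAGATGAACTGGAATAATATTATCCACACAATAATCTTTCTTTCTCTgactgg
Vmn1r215: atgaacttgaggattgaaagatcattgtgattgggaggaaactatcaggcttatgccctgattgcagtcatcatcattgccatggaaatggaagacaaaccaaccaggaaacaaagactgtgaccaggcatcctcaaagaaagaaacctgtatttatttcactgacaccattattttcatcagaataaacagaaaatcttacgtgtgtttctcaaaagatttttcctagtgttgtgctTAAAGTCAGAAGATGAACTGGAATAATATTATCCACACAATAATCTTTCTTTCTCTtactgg
The stretch shared by the first pair is 17 bases long and spans the start codon, and that of the second pair is 56 bases long and also crosses the start. Vmn1r215 rose by 0.78 in ∆P against C57Bl6 liver, with a change of 0.42 after quantile normalization (adjusted p = 0.0222).

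Motifs were searched on both strands of the 103 windows and, for the share, of all 32851 RefSeq windows. The core of the sterol regulatory element, TCACNCCAC, was present in 1 V1R window (0.971%, against 1.24% of all windows), that of Vmn1r52. The E-box CACGTG, which SREBP proteins can also bind, was present in 0 of 103 V1R windows, against 7.15% of all. TATAAA, the TATA box, was present in 39 V1R windows (37.9%, against 13.6% of all), and the nuclear receptor half-site AGGTCA in 11 (10.7%, against 16.3%). A match describes letters only. As 83 of the 103 V1R windows lie around the coding start, and this was not counted for all windows, the shares may compare unlike regions. Nothing is read from them about V1R promoters. The change of Vmn1r52 was 0.33 ± 0.14 in ∆P (adjusted p = 0.0665) and 0.10 ± 0.14 in alb-SREBP-1a (adjusted p = 0.735), both against C57Bl6.

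The V1rd family lies on chromosome 7 and 8 of its 11 measured genes rose in ∆P against C57Bl6 liver (median change 0.68), 3 of 11 against alb-SREBP-1a. Of all probe sets 27.0% and 22.8% rose in these comparisons. Vmn1r180 (V1rd16) lay between 3.45 and 4.19 with a median of 3.84 in ∆P, between 2.39 and 3.42 with a median of 2.81 in alb-SREBP-1a, and between 2.23 and 2.65 with a median of 2.51 in C57Bl6 liver. No ∆P array overlapped with another genotype. The rise was 1.34 ± 0.11 (2.52-fold, adjusted p = 2.56e-07) against C57Bl6 and 0.97 ± 0.15 (adjusted p = 0.000283) against alb-SREBP-1a. Vmn1r183 (V1rd15) rose by 1.13 ± 0.19 against C57Bl6 and by 1.04 ± 0.21 against alb-SREBP-1a, in which 1 ∆P array lay within the range of the alb-SREBP-1a arrays.

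Vmn1r65 (V1rd6) showed another pattern. It lay between 3.22 and 4.18 with a median of 3.79 in ∆P, between 3.58 and 4.14 with a median of 3.83 in alb-SREBP-1a, and between 3.23 and 3.63 with a median of 3.47 in C57Bl6 liver. The ∆P arrays spread over the ranges of both other genotypes, while 7 of 8 alb-SREBP-1a arrays lay above all C57Bl6 arrays. It rose in alb-SREBP-1a against C57Bl6 by 0.36 ± 0.09 (adjusted p = 0.0129, but 0.0749 after quantile normalization) and did not pass in ∆P against C57Bl6 (0.24 ± 0.12, adjusted p = 0.103) or against alb-SREBP-1a (-0.12 ± 0.12, adjusted p = 0.447). After quantile normalization it fell in ∆P against alb-SREBP-1a by 0.37 ± 0.12 (adjusted p = 0.0289), and after cyclic loess by 0.40 ± 0.12 (adjusted p = 0.02).

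**Figure D2:**
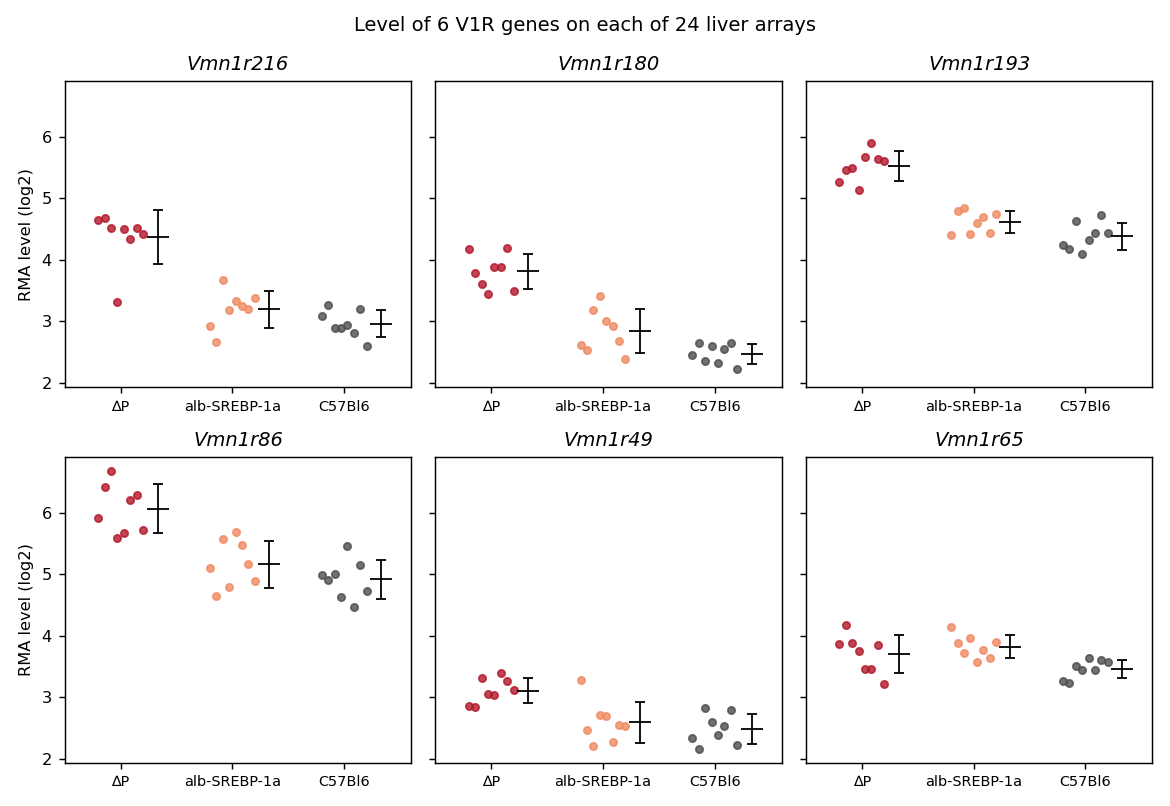
RMA level (log2) of 6 V1R genes on each array, with ∆P left, alb-SREBP-1a in the middle and C57Bl6 right, 8 arrays each, and the mean ± SD beside the points. Vmn1r180 and Vmn1r193 do not overlap between ∆P and the other genotypes, Vmn1r216 has a low ∆P array at 3.32, and Vmn1r65 is the gene whose ∆P arrays overlap with both others.

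Among the V1rh genes of chromosome 13, 15 of 17 rose in ∆P against C57Bl6 liver (median change 0.57), where 27.0% of all probe sets rose. Under all 3 other scalings, 3 of these V1rh genes kept their call. Vmn1r208 (V1rh9) lay between 5.30 and 6.14 with a median of 5.93 in ∆P, between 4.33 and 5.51 with a median of 4.97 in alb-SREBP-1a, and between 4.46 and 5.03 with a median of 4.59 in C57Bl6 liver. Its ∆P arrays were all above the C57Bl6 arrays, and it rose by 1.19 ± 0.13 (adjusted p = 2.61e-06), and by 0.90 ± 0.17 against alb-SREBP-1a. A dimmer probe set of Vmn1r208 changed by 0.42 ± 0.18 against C57Bl6 (adjusted p = 0.0596) and rose by 0.49 ± 0.18 against alb-SREBP-1a (adjusted p = 0.0357). The probe sets of this gene thus differ in size and, against C57Bl6, in the call. Vmn1r217 (V1rh14), on the same chromosome, rose by 0.43 ± 0.13 against C57Bl6 and 0.47 ± 0.14 against alb-SREBP-1a, and both calls were lost under all 3 other scalings. Vmn1r210 (V1rh10), named after its values were seen, rose in ∆P against alb-SREBP-1a only, by 0.67 ± 0.18, and fell in alb-SREBP-1a against C57Bl6 after cyclic loess alone (-0.36 ± 0.11, adjusted p = 0.0485). Vmn1r227 (0.39 ± 0.15, adjusted p = 0.0456) and Vmn1r33 (0.38 ± 0.15, adjusted p = 0.0499) were the other genes with a call in that comparison only, and both calls were lost under all 3 other scalings.

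Vmn1r86, whose older name carries no family letter, had the highest mean level of the V1R probe sets. It lay between 5.59 and 6.68 with a median of 6.06 in ∆P, between 4.64 and 5.69 with a median of 5.13 in alb-SREBP-1a, and between 4.47 and 5.46 with a median of 4.94 in C57Bl6 liver. The lowest ∆P array stood above the highest C57Bl6 array, and 6 of 8 ∆P arrays above every alb-SREBP-1a array. It rose by 1.15 ± 0.17 (adjusted p = 4.55e-05) against C57Bl6 and by 0.90 ± 0.18 (adjusted p = 0.00135) against alb-SREBP-1a. Vmn1r22 (V1rc23), the gene of lowest level, lay between 1.79 and 2.64 in ∆P and between 1.52 and 2.18 in C57Bl6 liver, and its rise of 0.54 ± 0.14 (adjusted p = 0.00469) did not pass after quantile normalization (adjusted p = 0.0613) or loess (adjusted p = 0.42).

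Ligands are known for 3 of the named receptors. Vmn1r49 (V1rb2), the receptor of the mouse pheromone 2-heptanone, lay between 2.85 and 3.40 with a median of 3.08 in ∆P, between 2.21 and 3.29 with a median of 2.54 in alb-SREBP-1a, and between 2.16 and 2.82 with a median of 2.46 in C57Bl6 liver. Its ∆P arrays lay just above all C57Bl6 arrays and overlapped the alb-SREBP-1a range. It rose by 0.62 ± 0.11 (adjusted p = 0.000294) against C57Bl6, but after quantile normalization the change was 0.29 and did not pass (adjusted p = 0.124). Vmn1r89 and Vmn1r85, the V1rj receptors of sulfated estrogens, are the next pair. Vmn1r89 (V1rj2) lay between 4.37 and 5.79 with a median of 4.83 in ∆P, between 3.96 and 4.59 with a median of 4.47 in alb-SREBP-1a, and between 3.94 and 4.46 with a median of 4.23 in C57Bl6 liver. Vmn1r85 (V1rj3) lay between 4.36 and 5.20 with a median of 4.66 in ∆P, between 4.04 and 4.78 with a median of 4.26 in alb-SREBP-1a, and between 3.92 and 4.66 with a median of 4.22 in C57Bl6 liver. The ranges overlapped for both genes. Against C57Bl6, Vmn1r89 rose by 0.69 ± 0.17 (adjusted p = 0.00296) and Vmn1r85 by 0.52 ± 0.14 (adjusted p = 0.00625), and both calls were lost after quantile normalization (adjusted p = 0.0903 and 0.245).

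Of the genes that rose in alb-SREBP-1a liver, Vmn1r236 (V1rf4, chromosome 17) and Vmn1r42 (V1ra family, chromosome 6) rose in all 3 comparisons. Vmn1r236 lay between 3.71 and 4.97 with a median of 4.18 in ∆P, between 3.35 and 4.09 with a median of 3.61 in alb-SREBP-1a, and between 3.03 and 3.46 with a median of 3.22 in C57Bl6 liver. The 3 genotypes formed steps, with 6 of 8 alb-SREBP-1a arrays above all C57Bl6 arrays and 5 of 8 ∆P arrays above all alb-SREBP-1a arrays. The changes were 0.98 ± 0.14 in ∆P against C57Bl6 and 0.56 ± 0.15 in ∆P against alb-SREBP-1a (adjusted p = 0.14 after quantile normalization and 0.164 after loess). Between alb-SREBP-1a and C57Bl6 liver the change was 0.42 ± 0.11 (adjusted p = 0.0204, and 0.0645 after quantile normalization). For Vmn1r42 they were 0.86 ± 0.11, 0.59 ± 0.11 and 0.28 ± 0.09 in the same order, the last lost after quantile normalization (adjusted p = 0.234) and loess (adjusted p = 0.127). Vmn1r14 (V1rc7) rose against C57Bl6 by 0.63 ± 0.17 in ∆P and by 0.28 ± 0.08 in alb-SREBP-1a, and both calls were lost after quantile normalization and after loess. No V1R gene passed in alb-SREBP-1a against C57Bl6 after quantile normalization, and 6 had an unadjusted p under 0.05.

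The other families moved in the same direction in ∆P against C57Bl6 liver, where 27.0% of all probe sets rose and 20.2% fell. All 11 V1rg genes rose (median change 0.52), among them Vmn1r82 (V1rg12, 0.43 ± 0.14), whose call was lost under all 3 other scalings. Of the V1ra genes 7 of 8 rose (median 0.62), of the V1rb genes 5 of 6 (0.62), of the V1rc genes 21 of 27 (0.54), of the V1re genes 10 of 13 (0.47) and of the V1rf genes 4 of 5 (0.47). Vmn1r48 (V1ra3) had a wide spread, with ∆P arrays between 2.87 and 5.33 and a rise of 0.91 ± 0.29 (adjusted p = 0.0173) that did not pass after quantile normalization (adjusted p = 0.141) or loess (adjusted p = 0.14). By chromosome, 33 of 41 genes rose on chromosome 6 (median change 0.55), 27 of 34 on chromosome 7 (0.52), 25 of 27 on chromosome 13 (0.61) and 12 of 14 on chromosome 17 (0.49). The only member on chromosome 1, Vmn1r1, lay between 3.64 and 4.59 in ∆P and between 3.83 and 4.38 in C57Bl6 liver, with a change of 0.00 ± 0.13 (adjusted p = 0.983). Differences between families or chromosomes were not tested.

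**Figure D3:**
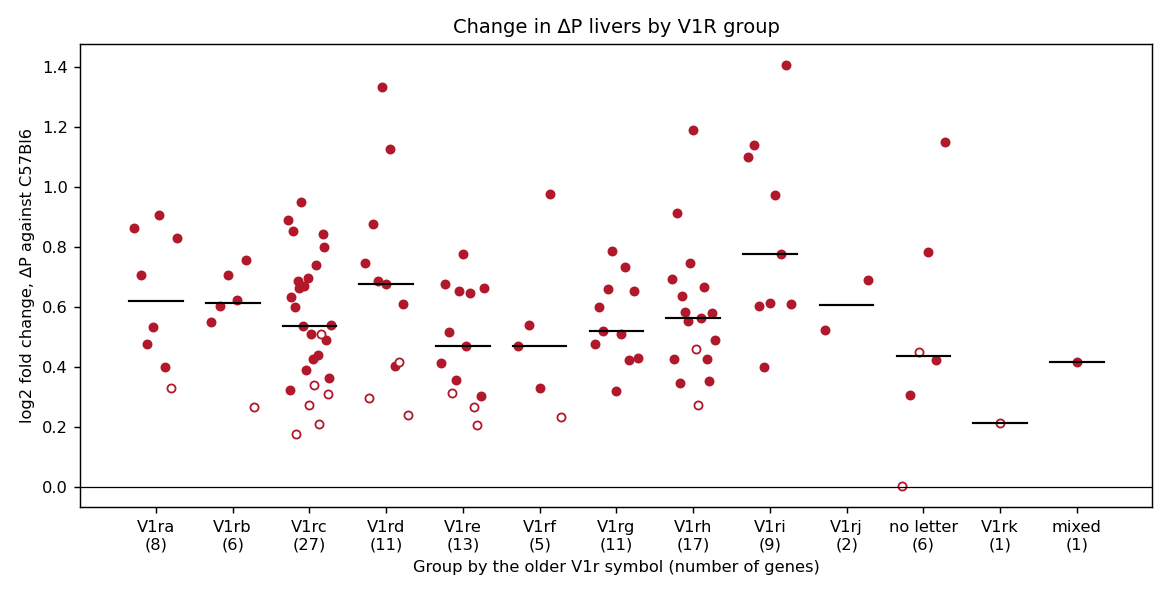
Log2 fold change in ∆P against C57Bl6 liver for each V1R gene, by the letter of its older symbol, with the number of genes in brackets, filled circles for genes that rose, open circles for genes that did not pass, and a line at the median. The V1ri median of 0.78 is above the 0.47 of V1re and V1rf, and Vmn1r1, without a letter, lies at 0.00. All values are on the deposited scale, and 93 of 117 stay above 0 after cyclic loess.

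The 28 probe sets assigned to several genes including a V1R were not counted above. All 28 rose in ∆P against C57Bl6 liver, with a median change of 1.36 and a highest of 1.96, 26 of 28 rose against alb-SREBP-1a (median 1.16), and 1 of 28 rose in alb-SREBP-1a against C57Bl6 (median 0.21). Across all probe sets 27.0%, 22.8% and 6.77% rose in these comparisons. In 19 of the 28 the ∆P arrays lay above every C57Bl6 array (5.34% of all probe sets). These sets are not independent of each other, and 3 of them hold identical values.

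The rise of V1R genes changed in size with the scaling of the arrays, and the ∆P arrays also differed from the others in spread. The median level of the 117 genes on an array ran between 3.39 and 3.88 in ∆P, between 3.10 and 3.37 in alb-SREBP-1a and between 2.99 and 3.19 in C57Bl6 liver. Thus each ∆P array was above each other array in this median, with replicate 4 lowest at 3.39 and the next at 3.52. The standard deviation of all probe sets on an array ran between 2.02 and 2.09 in ∆P, between 2.14 and 2.23 in alb-SREBP-1a and between 2.18 and 2.25 in C57Bl6 liver, so the ∆P arrays had the narrower distribution. Between replicates, the median SD of a V1R gene was 0.34 in ∆P, 0.26 in alb-SREBP-1a and 0.21 in C57Bl6 liver. The part of the array distribution in the V1R changes was not tested. Without ∆P replicate 4, which lay nearest to the other genotypes on the first principal component, 98 genes rose against C57Bl6 and 71 against alb-SREBP-1a. Of all probe sets 27.1% and 22.8% then rose. Without alb-SREBP-1a replicates 1 and 2, 53 genes rose in ∆P against alb-SREBP-1a (19.8% of all probe sets). In alb-SREBP-1a against C57Bl6, 8 then rose, where 5.82% of all probe sets rose, so nothing is read from this count.

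**Figure D4:**
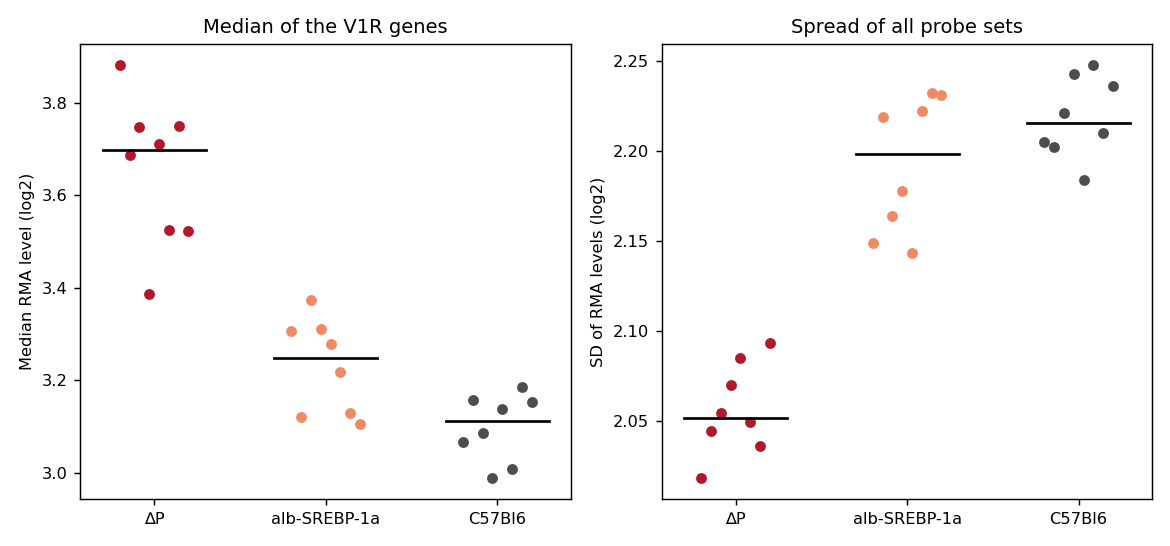
For each array, the median RMA level (log2) of 117 V1R genes on the left and the standard deviation of all 35556 probe sets on the right, with ∆P left, alb-SREBP-1a in the middle, C57Bl6 right and a line at the median of 8 arrays. The ∆P arrays lie between 3.39 and 3.88 in the V1R median, above all others, and between 2.02 and 2.09 in the standard deviation, below all others.

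The V1R genes were set beside other probe sets of low level, without a test of the difference. Among probe sets below the 20th percentile of mean level, which hold 106 V1R genes and 7111 probe sets in all, the median change against C57Bl6 was 0.55 for the V1R genes and 0.34 for all probe sets, and 82.1% of the V1R genes and 42.5% of all probe sets rose. With each array centred on its median the medians were 0.39 and 0.18, after quantile normalization 0.24 and 0.03, and after cyclic loess 0.20 and -0.01. After cyclic loess 21.7% of these V1R genes and 8.96% of these probe sets rose. The scalings lowered the median change of all 35556 probe sets by 0.16 (centring), 0.14 (quantile) and 0.11 (loess).

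**Figure D5:**
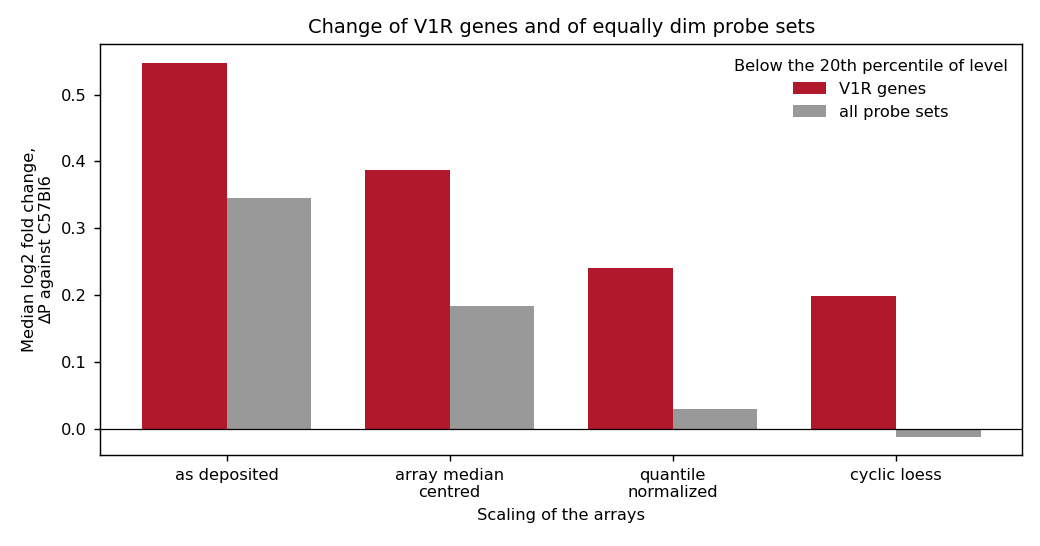
Median log2 fold change in ∆P against C57Bl6 liver for the 106 V1R genes and all 7111 probe sets below the 20th percentile of mean level, under the deposited scaling and 3 others. The V1R median is 0.55 as deposited and 0.20 after cyclic loess, and that of all these probe sets 0.34 and -0.01.

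Under all 3 other scalings, 28 of the 97 genes kept their call in ∆P against C57Bl6 and 16 of the 64 in ∆P against alb-SREBP-1a. The 28 include 5 of the 9 V1ri genes, 6 V1rc, 3 V1rd and 3 V1rh genes. The share of all probe sets that kept a higher call under all 3 is not given here. Whether V1R genes kept their calls more often than other probe sets was therefore not tested, for the whole set or by family. Shares of all probe sets that rose under each scaling alone are given below. Vmn1r216 kept a rise of 1.05 after quantile normalization (adjusted p = 6.96e-05), Vmn1r180 of 1.00 (adjusted p = 2.3e-06), Vmn1r208 of 1.00 (adjusted p = 2.1e-05), Vmn1r86 of 1.02 (adjusted p = 0.000234) and Vmn1r193 of 0.90 (adjusted p = 1.24e-05).

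Other chemosensory receptor genes were set beside the V1Rs in ∆P against C57Bl6 liver, where 27.0% of all probe sets rose and 20.2% fell. Of the V2R genes (Vmn2r), the receptors of the basal vomeronasal layer, 35 of 46 rose (median change 0.42) and none fell. Of the odorant receptors of the main olfactory epithelium, 834 of 1015 rose and 1 fell (median 0.56), and of the taste receptors 28 of 37 rose (median 0.49). Differences between these families were not tested, so the V1R rise is not described as particular to V1Rs.

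The genes through which V1Rs signal were counted in the same way. Of the 21 listed genes of the signal chain 17 were measured, without Trpc2, and in ∆P against C57Bl6 liver 3 rose, 4 fell and 10 did not pass (median change 0.10), where 27.0% of all probe sets rose and 20.2% fell, so nothing is read from these counts about the list. Gnai2, the G protein subunit of V1R neurons, had 9.74 ± 0.12 (SD, n = 8) in ∆P and 9.65 ± 0.09 in C57Bl6 liver and did not pass (0.09 ± 0.07). The phospholipase Plcb2 rose by 0.32 ± 0.09 and the calcium-activated chloride channel Ano2 by 0.35 ± 0.11, as did the beta subunit Gnb2 (0.19 ± 0.07). The beta subunit Gnb1 fell by 0.40 ± 0.08 and the inositol trisphosphate receptor Itpr2 by 0.53 ± 0.07, as did Prkcd and Homer1. In alb-SREBP-1a against C57Bl6 liver, Gnai2, Gnb2 and the arrestin Arrb2 (0.54 ± 0.09) rose and none fell, where 6.77% of all probe sets rose and 3.98% fell. Of 8 genes listed as receptor chaperones, Rtp1 (0.29 ± 0.12, adjusted p = 0.0496) and Reep1 (0.29 ± 0.11, adjusted p = 0.0453) rose in ∆P against C57Bl6. The calcium-binding chaperone Calr fell by 0.37 ± 0.07 there. In alb-SREBP-1a against C57Bl6, Rtp3 (0.38) and Rtp4 (0.63) rose and none fell. In ∆P against alb-SREBP-1a, 2 of the 8 rose and 3 fell, among them Rtp3 (-0.48) and Rtp4 (-0.57). There 22.8% of all probe sets rose and 21.4% fell, and nothing is read from the chaperone counts about the list. Of the 3 partners of V2Rs, H2-M1 (0.46 ± 0.17) and H2-M10.1 (0.43 ± 0.12) rose in ∆P against C57Bl6. The liver's own pheromone carriers, the major urinary proteins, were measured as Mup3 and Mup21, and neither passed in any comparison.

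Markers of sensory neurons had mean levels between the 13.6 and 66.3 percentile of all probe sets. Of 14 markers, 4 rose (Gap43, Stmn3, Elavl4 and Adcy3), Ncam2 fell by 0.76 ± 0.16 and 9 did not pass in ∆P against C57Bl6, next to the same 27.0% and 20.2% of all probe sets, and nothing is read from this count about the list. Their summed level (log2 of the sum) ran between 9.30 and 9.52 in ∆P, between 9.30 and 9.43 in alb-SREBP-1a and between 9.24 and 9.43 in C57Bl6 liver, and the ranges overlap. Omp, the marker of mature sensory neurons, had 5.97 ± 0.38 in ∆P and 5.67 ± 0.15 in C57Bl6 liver (SD, n = 8), a change of 0.31 ± 0.14 (adjusted p = 0.0799). Against alb-SREBP-1a liver Omp rose by 0.44 ± 0.14 (adjusted p = 0.0192). There 5 of the 14 markers rose and 3 fell, where 22.8% of all probe sets rose and 21.4% fell, and nothing is read from this count either. RMA levels have no zero, so no marker can be called absent, and the part of such cells in the V1R values was not tested.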

How the data were processed

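Liver RNA of 24 mice (150 ng each) was measured on Affymetrix arrays. The authors deposited log2 values made by RMA with the Expression Console software of Affymetrix. For further RMA settings nothing is given in the sources used here. The values of the 35556 probe sets lie between 0.833 and 15.0. By the array annotation, 21789 probe sets have 1 symbol, 1621 several and 12146 none. Chromosomes, older symbols and promoter windows come from RefSeq (GRCm38.p6).

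Fits used limma (version 3.58.1, R 4.3.3) on the 8 arrays of each of the 2 genotypes compared. Variances were moderated by eBayes, p-values were adjusted by Benjamini-Hochberg across every probe set, and a change is given in log2 with its standard error. A p-value here rests on the spread between individual mice. The script was checked on simulated data. Python 3.11.15 and matplotlib 3.10.9 served for counts and figures.

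Named genes were, per comparison, up to 8 with the largest rise and 8 with the largest fall, the 6 of highest and the gene of lowest level, Vmn1r49, Vmn1r85, Vmn1r89 and listed signalling genes. Vmn1r1, Vmn1r33, Vmn1r52, Vmn1r210, Vmn1r215 and Vmn1r227 were named after their values were seen. The genes and lists were chosen with earlier results of these data known. Alternatives were quantile normalization, array-median centring, cyclic loess, a filter on dim probe sets, a joint fit of the 24 arrays, a replicate block, a variance trend, array weights, the methods' t-test, the brightest probe set per gene, gene means and the omission of arrays. Leaving out each array in turn was added after seeing the data. Replicate numbers did not pair the arrays.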

Additional observations from a re-analysis of the deposited data

Results flagged for a closer look

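Of 60 groups of 8 arrays tested for a value that stands apart from the rest (Dixon's criterion), 3 passed, and chance alone gives about 1 in 20. Vmn1r216 had its lowest ∆P array at 3.32, with the next at 4.35 and a gap of 0.753 of the group's range. This is replicate 4, and no test of its cause was made. Vmn1r49 had its highest alb-SREBP-1a array at 3.29, with the next at 2.71 and a gap of 0.53 of the range. Vmn1r82 had its lowest alb-SREBP-1a array at 4.10, with the next at 4.31 and a gap of 0.531 of the range.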

How the results depend on the processing

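Scaling moved the counts of V1R genes that rose. In ∆P against C57Bl6 they were 97 as deposited, 63 with arrays centred on their median, 30 after quantile normalization and 28 after cyclic loess, and in ∆P against alb-SREBP-1a 64, 39, 21 and 16, with 1 gene lower after quantile normalization and 1 after loess (Vmn1r65 each time). Over all probe sets, 27.0%, 13.4%, 12.9% and 16% rose in ∆P against C57Bl6 under these scalings, and 22.8%, 10.1%, 9.62% and 11.3% in ∆P against alb-SREBP-1a. In alb-SREBP-1a against C57Bl6, 4 rose as deposited and with centring, 0 after quantile normalization and 2 after loess, with 1 lower after loess (Vmn1r210), while 6.77%, 6.48%, 6% and 6.64% of all probe sets rose as deposited, with centring, after quantile normalization and after loess. The cause was not tested. Higher calls made up 57.1%, 31.9%, 40.6% and 51.2% of all calls in ∆P against C57Bl6 as deposited, with centring, after quantile normalization and after loess, 51.6%, 23.9%, 41.1% and 52.2% in ∆P against alb-SREBP-1a, and 63.0%, 66.8%, 51.6% and 56.8% in alb-SREBP-1a against C57Bl6. In alb-SREBP-1a against C57Bl6, 1 gene rose with all 24 arrays in 1 fit, 2 with a variance trend and 8 without alb-SREBP-1a replicates 1 and 2. Of all probe sets 5.48%, 7.12% and 5.82% rose in these fits. The methods' t-test at their threshold called 0 in that comparison, 55 in ∆P against C57Bl6 and 28 in ∆P against alb-SREBP-1a, where a fold minimum applies. Leaving out each array in turn gave 2 to 5, 92 to 99 and 55 to 73 genes in alb-SREBP-1a against C57Bl6, ∆P against C57Bl6 and ∆P against alb-SREBP-1a, and the lowest of 2 came without C57Bl6 replicate 3, 4, 6, 7 or 8 or alb-SREBP-1a replicate 1, 3 or 6. For the t-test and for leaving out each array, no share of all probe sets is given here, so nothing further is read from those counts. Vmn1r49 in alb-SREBP-1a against C57Bl6 was 0.11 as deposited, -0.021 after quantile normalization and -0.01 after loess, and Vmn1r22 was 0.13 as deposited and -0.035 after loess, none past the threshold. Replicate numbers did not pair the arrays (correlations of deviations -0.116 to 0.279), and with the replicate block 3, 96 and 63 genes rose in the 3 comparisons (5.73%, 26.0% and 20.2% of all probe sets). The filter on dim probe sets left no V1R gene and gave no value. Dim signal limits all V1R values.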
